A study of Mus musculus with 4 samples.

Results

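The purinergic genes of microglia described here are 6 genes taken by symbol from the 31053 genes of the count matrices: the receptor genes P2ry12, P2ry13, P2ry6, P2rx4 and P2rx7, and Entpd1, which encodes the ectoenzyme CD39. Their RNA was followed across the cell classes of the mouse brain, between dissociation with and without inhibitors, and within microglia by the content of activation genes. The 6 genes took no part in naming the cells, and 3253 of the 9861 cells kept were microglia-like by 9 other markers, among them Tmem119, Cx3cr1 and C1qa.

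The 4 mice were C57BL/6J males of postnatal day 90, whose whole brains were dissociated enzymatically into 1 library each for sequencing of single cells in droplets (10x Genomics, 3′ kit, version 2). In 2 animals no inhibitors were used. In the other 2 animals the transcription inhibitors actinomycin D and triptolide were present during perfusion, dissection and digestion, with the translation inhibitor anisomycin added for dissection and digestion. All 4 animals shared strain, sex, age, enzymatic digestion and a single labelled batch, so the comparison tells apart dissociation with and without the whole cocktail, not its single agents, and no brain taken without digestion was analysed here.

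Injured and active brain cells release ATP and ADP, which microglia sense through G protein-coupled P2Y receptors and through P2X receptors, ion channels opened by ATP. P2Y12, the ADP receptor encoded by P2ry12, directs the extension of microglial processes towards a source of nucleotide and is widely used as a marker of homeostatic microglia. Enzymes on the cell surface, with CD39 first among them, break the nucleotides down towards adenosine, which acts on receptors of its own.

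P2ry12 lies at chr3:59216272-59262871 and P2ry13 at chr3:59207892-59210882, both on the minus strand of GRCm38, 5389 bases apart with no annotated gene between them and both inside Med12l, a gene of the opposite strand. P2rx7 (chr5:122643911-122691432) and P2rx4 (chr5:122707544-122729738) form another pair of neighbours, on the plus strand and 16111 bases apart, with the noncoding gene model Gm10064 between them. P2ry6 lies at chr7:100937630-100974649 on the minus strand and Entpd1 at chr19:40612366-40741602 on the plus strand. Promoters of both neighbouring pairs are shown because the first pair was detected almost only in microglia-like cells, while the second pair was also detected in other classes. Each line gives the 250 bases before the RefSeq transcription start (GRCm38.p6), read 5′ to 3′ along the gene, at chr3:59262986-59263235 for P2ry12, chr3:59210883-59211132 for P2ry13, chr5:122643677-122643926 for P2rx7 and chr5:122707294-122707543 for P2rx4. Capitals mark the cores of the myeloid ETS factor PU.1 (GGAAGT or GAGGAA) and the AP-1 type motif (TGANTCA), each searched on both strands.
P2ry12: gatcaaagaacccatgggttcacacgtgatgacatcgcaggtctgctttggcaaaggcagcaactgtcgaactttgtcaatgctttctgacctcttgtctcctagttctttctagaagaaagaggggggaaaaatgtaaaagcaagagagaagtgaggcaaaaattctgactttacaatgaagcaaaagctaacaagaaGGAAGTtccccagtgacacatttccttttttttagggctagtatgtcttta
P2ry13: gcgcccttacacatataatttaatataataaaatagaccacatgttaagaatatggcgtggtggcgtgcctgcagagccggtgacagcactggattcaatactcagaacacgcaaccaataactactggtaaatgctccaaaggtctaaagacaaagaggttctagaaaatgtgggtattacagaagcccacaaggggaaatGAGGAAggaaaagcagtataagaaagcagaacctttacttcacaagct
P2rx7: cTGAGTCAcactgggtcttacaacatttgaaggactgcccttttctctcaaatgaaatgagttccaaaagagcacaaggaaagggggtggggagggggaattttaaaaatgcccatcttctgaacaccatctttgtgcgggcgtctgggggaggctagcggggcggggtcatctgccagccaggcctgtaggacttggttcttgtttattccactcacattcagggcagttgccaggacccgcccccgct
P2rx4: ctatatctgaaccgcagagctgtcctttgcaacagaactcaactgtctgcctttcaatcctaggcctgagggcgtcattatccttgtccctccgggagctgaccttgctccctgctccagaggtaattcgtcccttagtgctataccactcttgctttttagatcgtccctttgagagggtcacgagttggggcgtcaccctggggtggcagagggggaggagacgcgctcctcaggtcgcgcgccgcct
The P2ry12 promoter held 1 GGAAGT, beginning 51 bases before the start, and the P2ry13 promoter held 1 GAGGAA, beginning 48 bases before it. Among 32851 promoters of the same length, 19.7% held GGAAGT and 23.3% held GAGGAA. The P2rx7 window held 1 AP-1 type motif, 249 bases before the start, and 6.75% of all promoters held 1 or more. The search pattern TGANTCA, though not the site itself, reads the same way on both strands, so this 1 site matched on both. A further RefSeq start of P2rx7, whose window lies at chr5:122650133-122650382, held none of the motifs. No searched motif was in the P2rx4 window. G and C made up 41.6% of the P2ry12 and of the P2ry13 window, 53.6% of the P2rx7 window shown and 57.2% of the P2rx4 window, against a median of 52.4% over all promoters. Entpd1 has 2 starts in RefSeq: the window of the upstream start (62.4% G and C) held none of the motifs, and that of the downstream start (47.2%) held GAGGAA at 235 and 227 bases before it. No promoter is shown for P2ry6. A match to these letters is a description of the sequence and does not show binding.

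The kept cells held 20745239 UMIs (unique molecular identifiers, which count RNA molecules), with a median of 1440 to 1684 UMIs per cell and library. Microglia-like cells numbered 726 and 876 in the no inhibitor animals and 701 and 950 in the inhibitor animals, and their RNA summed to between 1031541 and 1273556 UMIs per animal. C1qa was detected in 99.7% to 99.9% of them, Cx3cr1 in 91.3% to 92.0% and Tmem119 in 89.8% to 93.7%. The 10 macrophage and monocyte markers together reached 9.80 to 17.4 CPM (the UMIs of a gene in a class of 1 animal, scaled to a total of 1000000 UMIs of that class and animal), with 4 to 9 of the 10 detected. Free RNA of other classes was present, at 2000 to 4089 CPM for 6 choroid plexus markers. Each pair of libraries shared 6 to 10 cell barcodes, and no 2 libraries were copies of each other. Dissociation without inhibitors was visible in microglia-like cells: Fos, an immediate early gene, stood at 797 and 423 CPM without inhibitors and at 2.91 and 2.45 CPM with them, although its log2 fold change of 7.81 was not called (adjusted p = 0.555, edgeR's quasi-likelihood test with Benjamini-Hochberg adjustment), while Junb and Dusp1 were called.

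All 6 genes were higher in the microglia-like cells of every animal than in any animal of the other 7 classes that had at least 20 cells in each animal. These levels across classes are descriptions and were not tested, since the genes are named for this pattern. P2ry12 stood at 2577 and 2740 CPM in microglia-like cells of the no inhibitor animals and at 2461 and 1978 CPM in those of the inhibitor animals (mean 2439 ± 328, SD, n = 4). Next came neuron-like cells at 67.8 ± 48.0 CPM (SD, n = 4, 35 UMIs in all), astrocyte-like cells at 21.9 ± 5.06 and oligodendrocyte-like cells at 16.2 ± 7.77, and choroid plexus-like cells were lowest at 9.30 ± 7.88. Below microglia-like cells, the ranges of every neighbouring pair of classes in this order overlapped between animals.

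P2ry13, a further ADP receptor, stood at 465, 418, 450 and 401 CPM in microglia-like cells of no inhibitor animals 1 and 2 and inhibitor animals 1 and 2 (mean 433 ± 29.1, SD, n = 4). The next class was neuron-like cells at 21.4 ± 20.4 CPM from 10 UMIs, and all classes below it overlapped their neighbours, from ependymal-like cells at 4.22 CPM to choroid plexus-like cells at 1.66 CPM. P2ry6, the receptor for UDP that has been tied to phagocytosis by microglia, stood at 441, 425, 427 and 469 CPM in the same order (mean 440 ± 20.4, SD, n = 4). No other of the 8 classes exceeded the 7.99 ± 12.7 CPM of neuron-like cells, a value of 4 UMIs. The 3 P2Y receptor genes were thus detected at low levels in the other 7 classes, in few UMIs.

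P2rx4 and the ectoenzyme gene had a second tier of classes that did not overlap the class below it, while the channel gene P2rx7 had no such step. P2rx4, an ATP-gated channel, stood at 84.1, 80.9, 105 and 80.9 CPM in microglia-like cells (mean 87.6 ± 11.5, SD, n = 4). Oligodendrocyte-like cells followed at 50.8, 35.4, 32.8 and 33.8 CPM (mean 38.2 ± 8.45), without overlap with endothelial-like cells at 22.0 ± 1.87. Mural-, astrocyte-, neuron- and ependymal-like cells, between 16.6 and 19.6 CPM on average, overlapped one another in this order, and choroid plexus-like cells were lowest at 2.60 CPM, without overlap with ependymal-like cells.

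P2rx7, the ATP-gated channel that feeds into the NLRP3 inflammasome, stood at 75.0, 77.7, 81.4 and 75.2 CPM in microglia-like cells (mean 77.3 ± 3.0, SD, n = 4). Astrocyte-like cells followed at 23.8, 11.4, 17.0 and 22.1 CPM (mean 18.6 ± 5.60), overlapping oligodendrocyte-like cells at 11.3 ± 4.21. Each class below overlapped its neighbours, and endothelial-like cells were at 2.55 CPM.

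Entpd1 stood at 192, 218, 172 and 191 CPM in microglia-like cells (mean 193 ± 19.2, SD, n = 4). Its second tier was vascular: mural-like cells held 71.1, 72.1, 56.8 and 32.6 CPM (mean 58.2 ± 18.4) and endothelial-like cells 46.0, 48.5, 39.0 and 54.9 CPM (mean 47.1 ± 6.56). The 2 vascular classes overlapped each other, and every endothelial-like value lay above the highest of neuron-like cells (mean 14.9 ± 7.90).

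**Figure D1:**
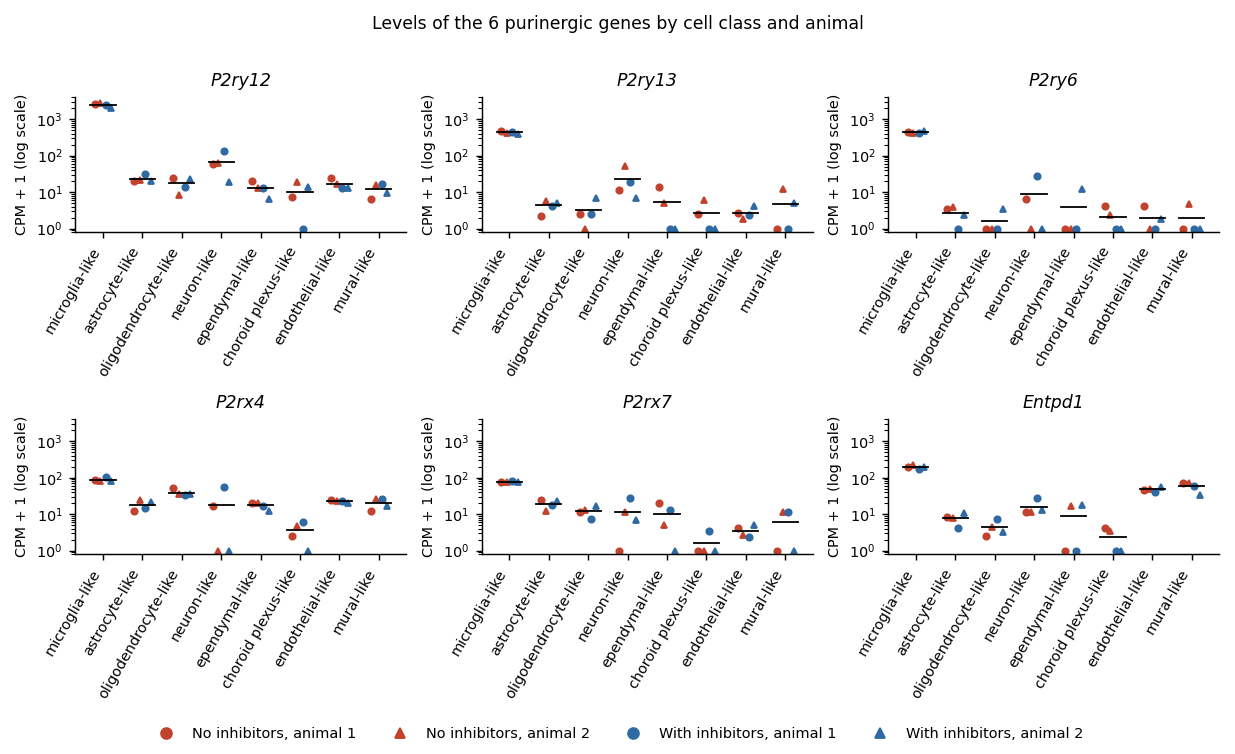
Level of each gene by cell class as CPM + 1 on a log axis, with 1 point per animal in the no inhibitor and inhibitor groups. Microglia-like cells lie above the other 7 classes for all 6 genes, and Entpd1 has a second tier in mural-like (58.2 CPM) and endothelial-like cells (47.1 CPM).

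Free microglial RNA in droplets can put a few UMIs of these genes into any cell. The UMIs of 6 microglial markers (Tmem119, Fcrls, Siglech, Cx3cr1, C1qa and Csf1r) in each class therefore set how many UMIs of each gene would come with that RNA, counting error only. A gene was taken as above that amount where the lower limit of its 95% Poisson interval exceeded it. P2ry12 gave 69 UMIs in astrocyte-like cells where 78.9 came with the markers. By this rule P2ry12, P2ry13 and P2ry6 were above in none of the other 7 classes. Some counts were higher within that error, such as P2ry12 in oligodendrocyte-like (47 against 39.8) and P2ry13 in neuron-like cells (10 against 6.88). By the same rule P2rx4 was above in all of the other 7 classes, down to 6 UMIs against 1.24 in choroid plexus-like cells. P2rx7 and Entpd1 were above in all of them but choroid plexus-like cells. P2rx4 lay far above the amount in oligodendrocyte-like cells (105 UMIs observed against 1.44) and endothelial-like cells (83 against 2.34). P2rx7 did so in astrocyte-like cells (58 against 2.46) and oligodendrocyte-like cells (32 against 1.28). For Entpd1, endothelial-like cells gave 185 UMIs against 5.29 and mural-like cells 52 against 1.20.

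Macrophage/monocyte-like cells, led by Mrc1, Pf4 and Cd163, numbered only 19 and 18 without and 9 and 19 with inhibitors and were not tested. In them P2rx7 reached 513, 147, 232 and 472 CPM (34 UMIs, mean 341 ± 179, SD, n = 4), and P2rx4 reached 274, 147, 310 and 276 CPM (23 UMIs, mean 251 ± 71.8). For both channel genes every value lay above all 4 of microglia-like cells. P2ry6 was at 187 ± 39.4 CPM (17 UMIs) and Entpd1 at 121 ± 69.3 CPM (12 UMIs), with the Entpd1 value of 1 animal (220 CPM) above all of those of microglia-like cells. P2ry12 was at 90.9 ± 42.1 CPM from 9 UMIs and P2ry13 at 82.4 ± 41.3 CPM from 8 UMIs, both below microglia-like cells in every animal.

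The likeness of each pattern to other genes was described by Pearson's r of the log2 class means (a pseudocount of 10 CPM) over the 8 classes, among 8116 genes that reached 50 CPM in at least 1 class. The 8 points share libraries and the same free RNA, and a single high class can set r, so no p is given. P2ry12 was most like Selplg (r = 0.999), Gpr34 (r = 0.998) and Tmem119 (r = 0.998). P2ry13 was most like Ncf1, Sash3 and Sla (r = 0.998 each), and P2ry6 most like Tnfrsf13b, Cd14 and Fcgr1 (r = 0.999 each). The channel genes had less close neighbours, Necap2 (r = 0.965), Tmed2 (0.961) and Gspt1 (0.959) for P2rx4, and Snx29 (r = 0.971), Acp2 (0.965) and Scamp2 (0.961) for P2rx7. For Entpd1 they were Cmtm6 (r = 0.990), Baz1a (0.983) and Clint1 (0.983). Among the 6 genes themselves, r ran from 0.589 between Entpd1 and P2rx7 to 0.995 between the neighbours P2ry12 and P2ry13, and the neighbours P2rx4 and P2rx7 gave 0.825.

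To ask whether dissociation without inhibitors altered the purinergic genes of microglia, UMI sums per animal were compared over all 8761 genes that passed the filter on low counts. A call required both an adjusted p (Benjamini-Hochberg, over all genes tested) under 0.05 and a log2 fold change of more than 0.58 in either direction. In edgeR's quasi-likelihood test 49 genes were called (0.559%), 44 of them higher without inhibitors. Of the 6 purinergic genes 0 were called, 1 had an unadjusted p under 0.05, and DESeq2 gave the same 2 counts. Their median log2 fold change was 0.04, beside -0.00 over all genes tested. The p-values measure the spread between these 4 animals only.

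P2ry12 had the largest difference of the 6. Its levels given above put both no inhibitor animals above both inhibitor animals, but inhibitor animal 1 (2461 CPM) was closer to no inhibitor animal 1 (2577 CPM) than to inhibitor animal 2 (1978 CPM). The log2 fold change was 0.29 (SE 0.09), higher without inhibitors, and did not pass the adjusted threshold in edgeR's quasi-likelihood test with Benjamini-Hochberg adjustment (adjusted p = 0.189). Leaving out inhibitor animal 2 brought the log2 fold change to 0.15, and leaving out inhibitor animal 1 brought it to 0.45 (adjusted p = 0.0371 in edgeR), still under the fold limit. Inhibitor animal 2 was also lowest in median depth (1468, 1411, 1444 and 1270 UMIs per microglia-like cell). Oligodendrocyte markers were highest in its microglia-like cells (7 markers, all detected in every animal; 1003, 919, 1186 and 1788 CPM). The part of these in the P2ry12 value was not tested. Tmem119 (2319, 2526, 2534 and 2276 CPM) and Cx3cr1 (2343, 2260, 2435 and 2540 CPM) overlapped between groups, with log2 fold changes of 0.04 and -0.08.

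The other 5 genes had smaller estimates. On the log2 scale Entpd1 gave 0.21 (SE 0.12, adjusted p = 0.833 in edgeR), P2ry13 gave 0.08 (SE 0.10) and P2ry6 gave -0.02 (SE 0.10). P2rx4 gave -0.13 (SE 0.16) and P2rx7 gave -0.00 (SE 0.17). With 1 animal left out Entpd1 ran from 0.10 (without no inhibitor animal 2) to 0.30 (without inhibitor animal 2) and P2ry13 from 0.0067 to 0.16. Both groups overlapped in P2ry13, P2ry6, P2rx4, and P2rx7, whereas for Entpd1 the lowest no inhibitor value (191.7 CPM) was barely above the highest inhibitor value (191.2 CPM).

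**Figure D2:**
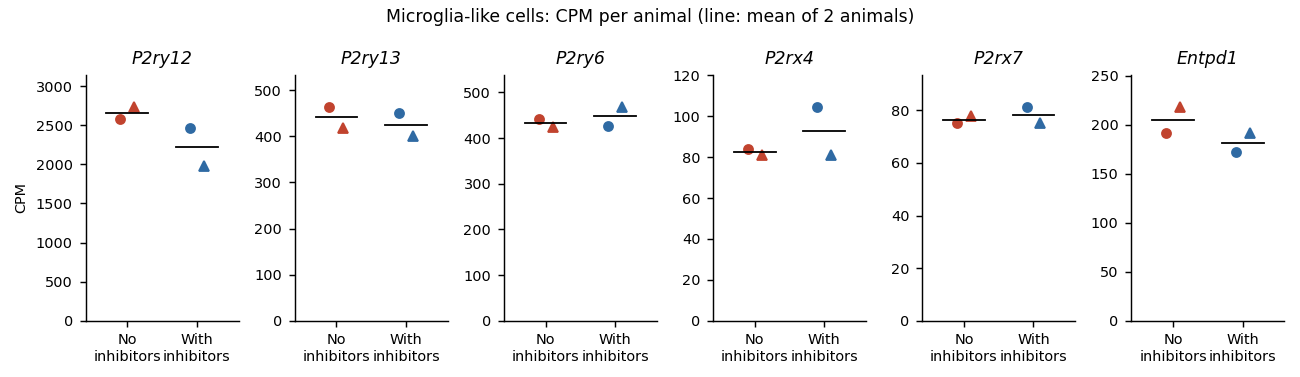
Level of each gene in microglia-like cells in CPM, 1 point per animal and a line at each group mean, with and without inhibitors. For P2ry12 the group means are 2658 and 2220 CPM, with inhibitor animal 2 lowest at 1978 CPM.

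In other classes a purinergic gene passed the filter in 9 cases, and 0 of the 9 were called (0 with an unadjusted p under 0.05, and 0 called by DESeq2). The share of genes called was 0.0359% in astrocyte-like, 0.0597% in endothelial-like, 0.0465% in mural-like and 0.261% in oligodendrocyte-like cells. Entpd1 gave 0.75 on the log2 scale (SE 0.44, adjusted p = 0.971 in edgeR) in mural-like cells, where inhibitor animal 2 was lowest, and -0.00 in endothelial-like cells. P2rx4 gave 0.36 (SE 0.30) in oligodendrocyte-like cells, with no inhibitor animal 1 highest, 0.20 in endothelial-like and 0.05 in astrocyte-like cells. P2rx7 gave -0.24 (SE 0.40) in astrocyte-like cells. With 1 animal left out, mural-like Entpd1 ran from 0.40 (without inhibitor animal 2) to 1.14 (without inhibitor animal 1) and oligodendrocyte-like P2rx4 from 0.066 (without no inhibitor animal 1) to 0.57 (without no inhibitor animal 2). The difference of the inhibitor effect between microglia-like cells and these classes was itself tested in the same 9 cases and was called in 0, with estimates from -0.54 (SE 0.43) for Entpd1 against mural-like cells to 0.64 (SE 0.42) for P2ry12 against astrocyte-like cells. In choroid plexus-, ependymal- and neuron-like cells, where 4.83%, 0% and 0.0886% of genes were called, 0 of the 6 genes passed the filter.

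Shares of cells were compared after each cell was thinned to 1000 UMIs, which left 651, 743, 610 and 760 microglia-like cells and left out 75, 133, 91 and 190 shallower ones. At that depth P2ry12 was detected in 89.6% and 88.4% of cells without inhibitors and in 87.7% and 82.2% with them. The no inhibitor mean was 4.02 percentage points higher, without overlap, and the exact two-sided permutation test gave p = 0.333, the smallest that 2 animals against 2 allow. The difference was 1.28 points without inhibitor animal 2 and 6.75 points without inhibitor animal 1. Without thinning the shares were 94.6%, 94.5%, 92.3% and 87.4%. In astrocyte-like cells 0.964% to 2.80% of cells at the same depth held a P2ry12 UMI. The 69 P2ry12 UMIs of that class did not exceed the 78.9 expected from its microglial markers, and their source was not tested.

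The remaining genes were detected in fewer cells at 1000 UMIs. P2ry13 was found in 35.0%, 34.7%, 37.2% and 32.4% of microglia-like cells, and P2ry6 in 35.8%, 34.5%, 35.1% and 35.8%. Entpd1 was found in 17.8%, 18.3%, 16.7% and 18.2%, P2rx4 in 8.76%, 7.54%, 8.69% and 6.58%, and P2rx7 in 6.45%, 8.08%, 7.38% and 7.37%. All 5 overlapped between groups. In astrocyte-like cells the mean P2rx7 share was 1.64% without and 1.99% with inhibitors, and that of P2rx4 was 1.49% and 1.63%. A median microglia-like cell held RNA of 2 of the 6 genes in every animal, and 94.1% to 96.9% held at least 1.

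P2ry12 was abundant enough to be followed per cell. At 1000 UMIs its mean was 2.64, 2.66, 2.52 and 1.98 UMIs per microglia-like cell, with a median of 2 in each animal and a highest count of 10 to 12. The variance of 3.65, 3.82, 3.66 and 2.54 exceeded the mean in each animal. Cells with no P2ry12 UMI made up 10.4%, 11.6%, 12.3% and 17.8%, above the 7.14%, 7.02%, 8.01% and 13.9% that a Poisson distribution with the same mean gives. Cells with 6 or more UMIs made up 8.60%, 8.34%, 7.05% and 3.42%. Inhibitor animal 2 thus had the most cells without the RNA and the fewest with many copies.

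The cells without a P2ry12 UMI came from clusters that Tmem119 had helped to name. Its detection in them is therefore a description and no separate test of identity. Tmem119 was detected in 79.4%, 83.7%, 82.7% and 81.5% of them, beside 88.0%, 89.95%, 88.6% and 87.4% of the cells with a P2ry12 UMI. P2ry13 was detected in 35.3%, 24.4%, 28.0% and 25.2% of them, beside 35.0%, 36.1%, 38.5% and 33.9%. The P2ry13 share was thus lower among cells without P2ry12 in 3 of 4 animals. Across single microglia-like cells the 15 pairs of the 6 genes gave Pearson's r from -0.07 to 0.12 in the 4 libraries, with a median of -0.00, and such weak values in sparse counts are no finding.

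**Figure D3:**
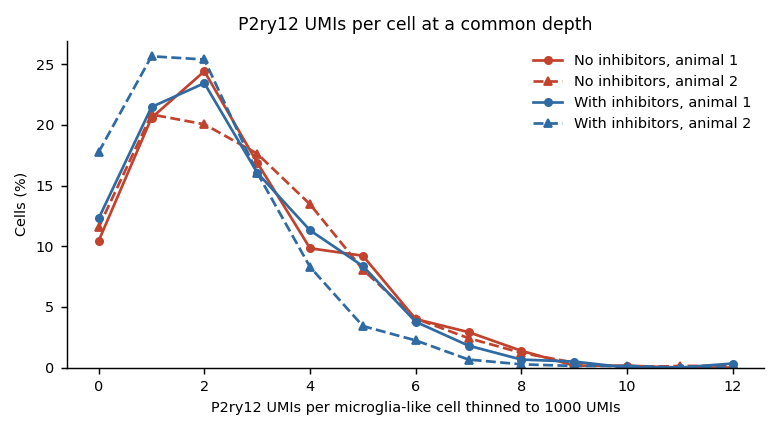
Share of microglia-like cells (percent) by the number of P2ry12 UMIs per cell after thinning to 1000 UMIs, for each of the 4 animals. The curve of inhibitor animal 2 is moved to lower counts, with 17.8% of its cells at 0.

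Within microglia, activation was measured apart from the purinergic genes. The UMIs of 25 activation genes that the study selected in its sorted microglia, Fos, Junb, Dusp1, Ccl3 and Ccl4 among them, were counted in each thinned cell, and the listed genes were then removed from the sums. Cells with 0 to 2 such UMIs per 1000 were of low content, those with 3 to 9 of middle content and those with 10 or more of high content. High cells numbered 230 of 651 and 182 of 743 without inhibitors and 3 in each inhibitor animal, so high and low cells were compared within the 2 no inhibitor animals, with the animal as a block.

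P2ry12 was higher in high-content than in low-content cells of both animals: 2904 against 2396 CPM in no inhibitor animal 1 and 2975 against 2511 CPM in no inhibitor animal 2. The log2 fold change was 0.27 (SE 0.07). It passed the threshold on p (adjusted p = 0.0139 in edgeR's quasi-likelihood test) but was under the limit on the fold, so the gene was not called. Without that limit 106 of 5004 genes (2.12%) passed, and P2ry12 was the only 1 of the 6 genes to do so. With the limit 72 genes were called (1.44%) and 0 of the 6. DESeq2 called 0 of the 6 with or without it, and its adjusted p for P2ry12 was 0.639, within a range of 0.00290 to 0.639 over the alternatives tried. By steps of content, P2ry12 went from 2251 and 2175 CPM in cells with 0 activation UMIs to 3201 and 3215 CPM in cells with 20 or more.

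In the same comparison the microglial markers Tmem119 and Cx3cr1 gave 0.22 (adjusted p = 0.110 in edgeR) and -0.05 (adjusted p = 0.856). High-content cells were deeper (median 1602 and 1600 UMIs against 1456 and 1460) and held a lower share of mitochondrial UMIs (medians of 3.61% and 4.18% against 4.14% and 4.58%). The part of these in the P2ry12 value was not tested.

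Among the other 5 genes, P2rx7 had the largest estimate. It stood at 98.8 against 64.2 and at 87.2 against 66.5 CPM in high against low cells, from 38 against 19 and 26 against 26 UMIs, and gave 0.52 on the log2 scale (SE 0.29, adjusted p = 0.522 in edgeR). P2ry13 went opposite ways in the 2 animals, 504 against 423 CPM in the first and 359 against 412 CPM in the second. P2ry6 gave -0.09, P2rx4 gave 0.07 and Entpd1 gave -0.05, each with an adjusted p of at least 0.847 in edgeR.

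**Figure D4:**
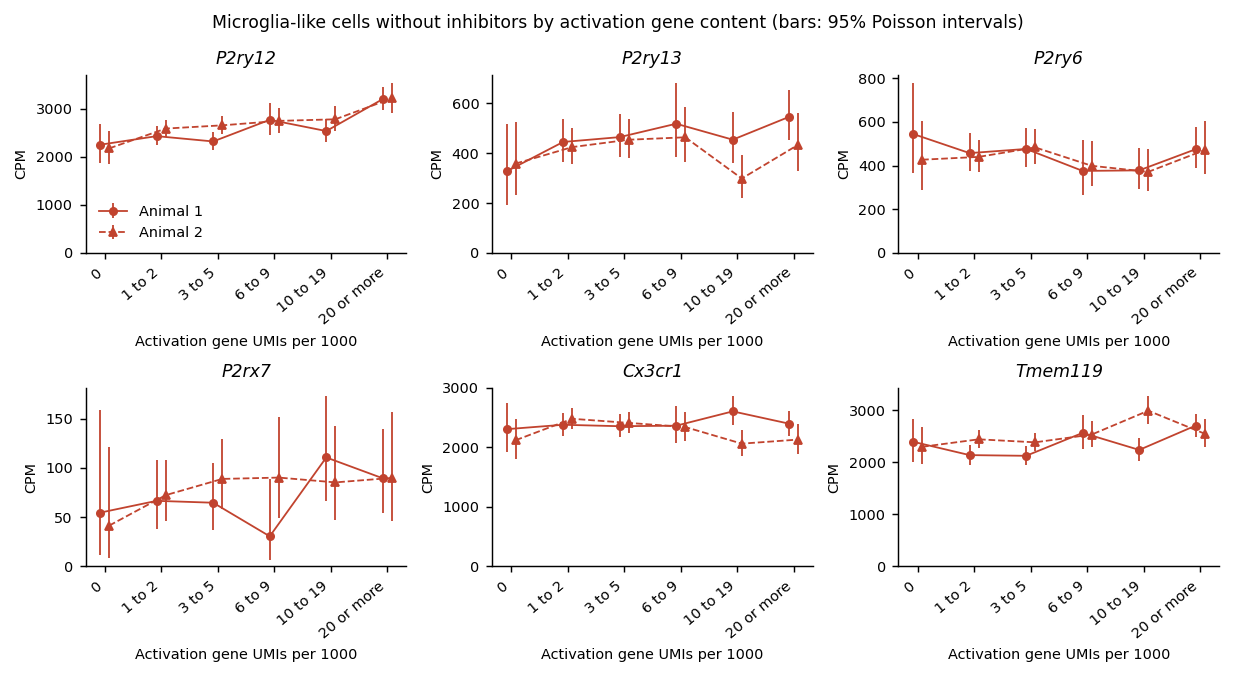
Level in CPM of P2ry12, P2ry13, P2ry6, P2rx7, Cx3cr1 and Tmem119 in microglia-like cells of the 2 no inhibitor animals by the number of activation gene UMIs per 1000, with 1 line per animal and 95% Poisson intervals for counting error only. P2ry12 reaches 3201 and 3215 CPM at 20 or more UMIs, from 2251 and 2175 CPM at 0.

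All 4 animals held cells of middle and of low content, which were compared next. With the animal as a block, 1 of 6143 genes was called (0.0163%) and 4 passed without a limit on the fold (0.0651%); of the 6 genes 0 passed in edgeR by either rule, 0 had an unadjusted p under 0.05 and DESeq2 called 0. P2ry12 gave 0.04 (2447, 2686, 2488 and 2060 CPM in middle cells against 2396, 2511, 2426 and 1914 CPM in low cells) and was higher in middle cells of 4 of 4 animals. The other 5 lay between -0.19 for P2rx4 and 0.08 for P2ry13.

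Low-content cells were also compared between the groups, where the activation genes themselves are scarce in both. Of 5938 genes 2 were called (0.0337%), and of the 6 genes 0 were called by edgeR or DESeq2 and 0 had an unadjusted p under 0.05. P2ry12 gave 0.19 on the log2 scale (SE 0.11, adjusted p = 0.950 in edgeR), and the groups overlapped, since no inhibitor animal 1 (2396 CPM) lay below inhibitor animal 1 (2426 CPM). Without inhibitor animal 2 it was 0.0288 and without inhibitor animal 1 it was 0.35. P2rx7 stood at 64.2 and 66.5 CPM without inhibitors and at 84.7 and 79.2 CPM with them, without overlap, and the log2 fold change of -0.31 was not called (adjusted p = 0.969 in edgeR). Both groups overlapped in the other 4 genes, whose estimates lay between -0.13 and 0.10.

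The wider purinergic pathway was described by a list of 43 genes that holds the 6 and, with them, the remaining P2Y, P2X and adenosine receptors, ectonucleotidases, nucleoside transporters and partners of these. In microglia-like cells 19 of the 43 passed the filter, and 0 were called in either direction between the groups (3 with an unadjusted p under 0.05). Beside the 6 genes, the largest estimates were those of Casp1, the protease of the inflammasome (0.53, adjusted p = 0.727 in edgeR), Adk, which removes adenosine (0.44, adjusted p = 0.913), and Adora3, the adenosine A3 receptor gene (-0.30, adjusted p = 0.710). Casp1 stood at 38.9, 28.3, 24.2 and 22.9 CPM and Adora3 at 86.8, 110, 127 and 122 CPM, without overlap between the groups. In Adk the level of inhibitor animal 2 (10.6 CPM) stood apart from the other 3 (19, 21.2 and 20.4 CPM). In choroid plexus-like cells 1 of 6 tested pathway genes was called: Enpp2, which encodes autotaxin, was called higher without inhibitors, with a log2 fold change of 0.71. Of the 620 choroid plexus-like cells, 35 formed a deeper cluster (7.52 times the median UMIs of their samples) with Enpp2 among its leading genes, and 11 and 17 of these came from the no inhibitor animals against 4 and 3 from the inhibitor animals. The part of this cluster in the Enpp2 value was not tested. In ependymal-like (4 tested), neuron-like (3), astrocyte-like (16), endothelial-like (12), mural-like (8) and oligodendrocyte-like cells (9) 0 pathway genes were called by edgeR, with 4 tests in all at an unadjusted p under 0.05.

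Of the 37 pathway genes other than the 6, 26 reached 10 CPM in at least 1 of the 8 tested classes. Among these 26, 8 were highest in microglia-like cells, each without overlap with the class next in mean level. Smaller classes, such as macrophage/monocyte-like cells, were not part of this comparison. Among receptors this held for Adora3 (111 ± 17.9 CPM, SD, n = 4). It held for the nucleoside handling genes Pnp (162 ± 14.2), Slc29a1 (64.5 ± 1.93) and Slc29a3 (141 ± 12), and for Slc17a9 (16.7 ± 3.45), the vesicular nucleotide transporter. The inflammasome genes Nlrp3 (36.2 ± 5.77), Pycard (444 ± 35.3) and Casp1 (28.6 ± 7.25) completed the 8.

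Other steps of the pathway were highest elsewhere. Entpd2, a relative of Entpd1, was highest in astrocyte-like cells (153 ± 14 CPM, SD, n = 4), as was Adk (232 ± 8.07). P2ry14, a receptor for UDP-glucose, was highest in mural-like cells (332 ± 75.0), P2rx6 in ependymal-like cells (51.4 ± 20.5) and Adora1 in oligodendrocyte-like cells (102 ± 13.7). Kcnk13, the potassium channel THIK-1, was highest in oligodendrocyte-like cells (99.2 ± 16.3) and next in microglia-like cells (64.6 ± 8.93). Nt5e, which encodes CD73 and makes adenosine from AMP after CD39 has acted, gave 1 UMI in all microglia-like cells and 26 UMIs in all classes, so its level was hardly measured at this depth. P2ry1, a further ADP receptor, was at 1.12 CPM in microglia-like cells and at 26.0 ± 9.83 CPM in mural-like cells.

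**Figure D5:**
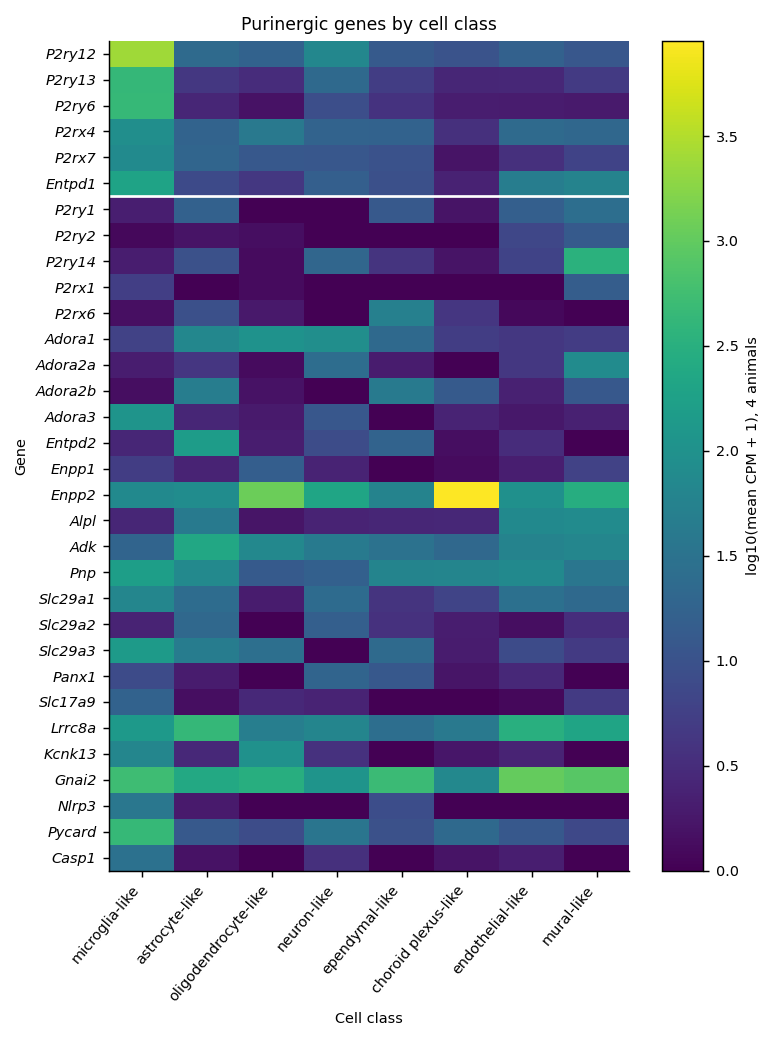
Mean level over 4 animals of the purinergic pathway genes by class, as log10(CPM + 1), brighter for higher, with the 6 genes above the white line. The 6 genes are brightest in microglia-like cells, while genes such as Entpd2 (153 CPM) and Adk (232 CPM) are highest in astrocyte-like cells.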

How the data were processed

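Droplet-based single-cell RNA sequencing of 4 whole mouse brains was analysed from the raw UMI counts per gene and barcode that the authors deposited for each library. The submitters' processing notes name bcl2fastq, Cell Ranger 3.0.0, Seurat and the builds GRCm38 and mm10. Library totals ran from 5134359 to 7529804 UMIs, which sets the precision of the counts. Of 12487 barcodes, 10067 with at least 400 genes and at most 20% mitochondrial UMIs passed, and 206 (2.05%) were removed as doublets by a score against simulated doublets, the highest scores being taken at a set rate of 0.8% per 1000 cells. The cells were clustered (2000 variable genes, 30 components, Leiden resolution 1, leidenalg 0.10.2, scikit-learn 1.9.0, Python 3.11.15) and named from at least 3 markers, never from the 6 purinergic genes, which were also kept out of the clustering.

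UMI sums per animal and class (at least 20 cells in each animal) entered the robust quasi-likelihood fit of edgeR 4.0.16 (R 4.3.3) after filterByExpr and TMM factors, a step checked on simulated counts, with DESeq2 1.42.0 as an alternative. The SE was derived from the F statistic. Named genes were the 6 members and, of the pathway list, those called or else the 3 with the largest absolute log2 fold change. Members and lists were chosen with earlier results of these data known. Poisson intervals cover counting error only. Alternatives tried were other normalizations and filters on counts and cells, more doublets removed, depths for thinning, activation lists and limits, a replicate block and leaving out each animal. Promoters came from RefSeq (GRCm38.p6; 5 of the 6 genes matched) and gene positions from GENCODE on GRCm38.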

Additional observations from a re-analysis of the deposited data

Results flagged for a closer look

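Several signals outside the tested classes lay above the UMIs that come with free microglial RNA, by the rule given earlier with 6 microglial markers in the same cells. Those of 7 UMIs or fewer were P2rx7, Entpd1 and P2rx4 in olfactory ensheathing-like cells, and P2rx7 and Entpd1 in neural progenitor-like cells. P2rx7 in oligodendrocyte precursor-like cells (4 UMIs) was another. The 4 signals with more UMIs are described next. P2rx7 gave 34 UMIs in macrophage/monocyte-like cells, where 4.31 came with the markers, and P2rx4 gave 23 UMIs there, against 4.79. Macrophages express several of these markers themselves, so the estimate for that class is only a rough guide. P2rx4 also gave 18 UMIs in 129 fibroblast-like cells, against 0.633, at 36.7 and 30.8 CPM without and 21.9 and 30.2 CPM with inhibitors. Entpd1 gave 14 UMIs in 71 erythrocyte-like cells, against 3.36, at 34.8 and 36.1 CPM without and 27.5 and 32.4 CPM with inhibitors. These classes had fewer than 20 cells in at least 1 animal, and no comparison between groups was made in them. Groups of 2 animals are too small to look for a sample far from the others.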

How the results depend on the processing

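Of 532 alternative values computed, 53 reversed in sign, all of them in results that were not called, and among 408 tests of a purinergic gene 1 was called: P2ry12 between high and low content (0.27) once the limit on the fold was dropped, a rule added after seeing the data. The levels in microglia-like cells moved by less than 1 SD under the 4 settings for cells. At Leiden resolution 2 a macrophage class became large enough to join the comparison and exceeded microglia-like cells in P2rx4 (199 against 80.9 CPM, highest against lowest animal) and P2rx7 (259 against 75.0 CPM). The cause of the changes below was not tested.

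Genes called in microglia-like cells numbered 30 with DESeq2, 24 with activation genes out of the totals and 53 to 55 with 1 animal left out, against 49. Between high and low content they were 37 at 500 UMIs and 19 with DESeq2, against 72. Between middle and low content they were 2 with the study's list for these brains, 0 at 500 UMIs, 0 under the stricter cell filter, 2 without a count filter, 4 without the fold limit and 1 to 2 with 1 animal left out, against 1. In low-content cells between groups they were 7 with the study's list, 4 at 500 UMIs, 6 without a count filter, 1 with DESeq2 and 2 to 11 with 1 animal left out, against 2.

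Reversed log2 fold changes between groups in microglia-like cells were P2rx7 without a count filter (0.0062) and under the stricter cell filter (0.0030), and P2ry6 under that filter (0.0187) and with more doublets removed (0.0042). Endothelial-like Entpd1 gave 0.022 with DESeq2 and 0.0006 with RLE factors. Between high and low content, P2ry6 gave 0.0080 with the study's list and 0.0475 with high content from 20 UMIs, and Entpd1 gave 0.15 with the latter. Between middle and low content, P2ry12 gave -0.0020, P2ry6 -0.0439 and P2rx7 0.41 with the study's list, P2ry6 gave -0.0805 at 500 UMIs and -0.0055 without a count filter, and P2rx7 gave 0.0108 without TMM factors. Differences in the share of cells became -0.935 for P2ry13, -0.534 for P2rx4 and 0.58 for P2rx7 (percentage points) at 500 UMIs, and 2.05 for P2ry6 and 0.827 for P2rx7 without thinning.

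With 1 animal left out, microglia-like log2 fold changes ran from -0.31 to 0.0513 for P2rx4, -0.055 to 0.0492 for P2rx7 and -0.0909 to 0.0571 for P2ry6. In other classes the ranges were -0.63 to 0.42 for P2rx4 and -0.80 to 0.27 for P2rx7 in astrocyte-like, -0.19 to 0.33 for Entpd1 in endothelial-like and -1.34 to 0.34 for P2ry12 in oligodendrocyte-like cells. Between high and low content they were -0.30 to 0.24 for Entpd1, -0.20 to 0.29 for P2ry13 and -0.11 to 0.27 for P2rx4. Between middle and low content they were -0.16 to 0.0619 for P2rx7, -0.0067 to 0.13 for Entpd1 and -0.0892 to 0.0878 for P2ry6. In low-content cells between groups they were -0.0809 to 0.0878 for P2ry13, -0.34 to 0.0514 for P2rx4 and -0.13 to 0.26 for Entpd1. Shares moved from -2.34 to 2.51 points for P2ry13, -0.981 to 0.355 for P2ry6, -0.542 to 1.57 for P2rx4, -0.921 to 0.703 for P2rx7 and -0.0965 to 1.34 for Entpd1.

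The labels do not say what same-numbered animals share. Their deviations in microglia-like cells correlated at r = 0.02 over 8761 genes, while olfactory ensheathing-like cells were found in both animals numbered 1 (29 without and 32 with inhibitors) and in 0 cells of the animals numbered 2. With the number as a replicate block, 7 genes were called between groups in low-content cells, against 2, and P2ry12 in microglia-like cells gave 0.30 (adjusted p = 0.661, edgeR's quasi-likelihood test).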

Other observations

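A cluster of 97 cells met the markers of both the macrophage/monocyte and the lymphocyte class and was left unnamed. At Leiden resolution 2 a cluster of 61 cells led by H2-Aa and Cd74 was named macrophage/monocyte-like. Another of 36 cells was named lymphocyte-like from Cd3e, Cd3d, Trbc2 and Nkg7. That cluster was led by S100a8 and S100a9, which were on the neutrophil marker list, and Ly6c2 and Plac8 were also among its leading genes. Led by H2-Aa, Cd74, Ccr2, Ly6c2 and Plac8, the cluster of 97 cells held P2ry6 RNA at 150 and 161 CPM without and 161 and 183 CPM with inhibitors (34 UMIs, mean 164 ± 13.7, SD, n = 4). P2rx4 was at 71.4 ± 36.3 CPM in the same cells and P2ry12 at 57.1 ± 40.2 CPM, while P2rx7 and Entpd1 gave 2 UMIs each. The cluster thus held P2ry6 at a narrow range of levels in all 4 animals, below those of microglia-like cells.

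Microglia-like cells fell into 3 large clusters and a small one. In the cluster of 2005 cells, P2ry12 stood at 2633 and 2694 CPM without and 2542 and 2077 CPM with inhibitors, and in that of 704 cells at 2722, 2703, 2314 and 1937 CPM. The cluster of 521 cells was more uneven, at 1794, 3041, 2265 and 1728 CPM. Inhibitor animal 2 was lowest in each of the 3. The small cluster held 23 cells, 20 of them from inhibitor animal 2, in which P2ry12 stood at 1152 CPM from 37 UMIs.

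Of the 47 P2ry12 UMIs in erythrocyte-like cells, 45 came from no inhibitor animal 2. Over all 4 animals of this class, 41.6 P2ry12 UMIs would come with its microglial marker UMIs. The source of the P2ry12 UMIs was not tested.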
